A study of Mus musculus with 6 samples.

Results

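The 10 genes described here make, carry, bind and break down retinoic acid, the active form of vitamin A, and were taken by gene symbol from 35850 genes in a transcript table of mouse optic nerve. They are Rdh10, Dhrs3, Aldh1a1, Aldh1a2 and Aldh1a3 (synthesis), Rbp4 and Stra6 (retinol transport and uptake), Crabp1 and Crabp2 (intracellular binding) and Cyp26b1 (clearance). The libraries were bulk polyA RNA from optic nerves of 6-week-old mice, 3 from a group exposed to a control diet (PicoLab 5053) and 3 from a group exposed to an obesogenic diet (an AIN-76A formula with sucrose and 58% of its energy as fat). The series title calls the exposure maternal and the disease model Neurofibromatosis type 1 optic pathway glioma. Every animal in both groups carried GFAP-Cre, a floxed Nf1 allele and the R681X allele of Nf1, the gene of a RAS inhibitor that is lost in this disease. Cre expression depended on the promoter of GFAP, a gene of astroglia and their precursors. No group here lacks the Nf1 alleles. The labels do not say that the 3 samples of a diet came from separate animals or litters, so p-values measure the spread between these samples only, which may be technical.

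Vitamin A circulates as retinol bound to the carrier encoded by Rbp4 and enters cells through the membrane receptor encoded by Stra6. Rdh10 oxidises retinol to retinaldehyde, Dhrs3 encodes the reductase that runs the step backwards, and the enzymes of Aldh1a1, Aldh1a2 and Aldh1a3 turn retinaldehyde irreversibly into retinoic acid. Retinoic acid is held in the cytosol by Crabp1 and Crabp2, acts on nuclear receptors of the RAR and RXR families, and is degraded by CYP26 enzymes. In the developing eye and optic stalk these enzymes are laid out in separate domains, and in the developing brain the meninges, the membranes that sheathe brain and optic nerve, are a known source of retinoic acid through Aldh1a2.

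Values are in TPM, a relative abundance that corrects for transcript length, so levels of different genes can be set side by side. The listed TPM of a library added up to 788456 at least and 832193 at most, and TPM carries no sequencing depth. The tissue markers were present, with 12 oligodendrocyte genes summing to between 27187 and 70217 TPM. Obesogenic library 2 stood apart, with 20.6% of its listed TPM in immunoglobulin genes against at most 0.0439% in any other library. TPM is a share of a total, so these genes lower the TPM of all others in that library. Obesogenic libraries 1 and 3 stood apart in another way, with 14 neuronal genes summing to 444 and 1122 TPM against 203 TPM in obesogenic library 2 and 76.4 to 155 TPM in control. In bulk tissue, fewer cells of a type and less RNA per cell cannot be told apart.

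Aldh1a2, Crabp2, Rbp4, Cyp26b1 and Dhrs3 had obesogenic values that were all below the lowest control value, and Crabp1 had higher ones. Mean levels of Aldh1a2, Crabp2 and Rbp4 were about a factor of 3 apart (2.94, 2.98 and 3.09 times higher in control), that of Cyp26b1 was 6.10 times higher with the control diet and that of Dhrs3 1.62 times. Aldh1a1 and Rdh10 overlapped between the diets, Stra6 overlapped by 1 library, and Aldh1a3 was close to 0 in all. Of the 9 genes that reached 1 TPM in at least 3 libraries, 0 passed limma's test at an adjusted p of 0.05, against 0.00696% of the 14364 genes tested. At an unadjusted p of 0.05, 7 of the 9 passed, against 11.0% of all genes. In 5 of the 9 all obesogenic libraries lay below all control ones, against 7.45% of all genes, and 1 was higher in the same way, against 8.88%. The 9 had a median change of -0.69 on the log2(TPM + 1) scale, against 0.08 for all genes tested. Crabp1 reached the level needed for testing only through its obesogenic libraries, so these counts are a description.

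**Figure D1:**
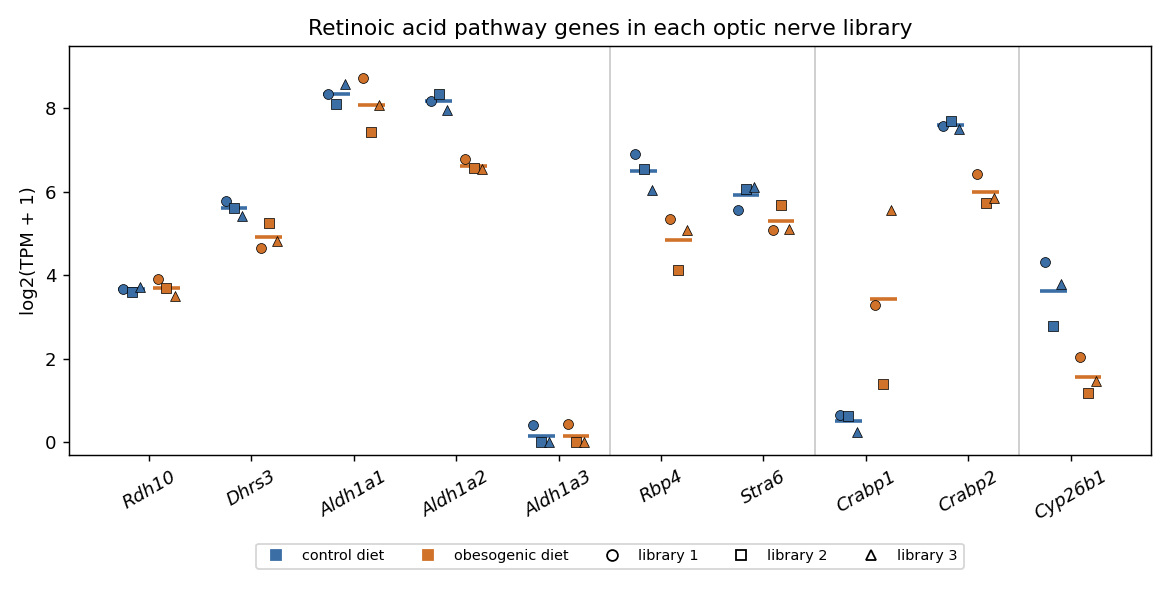
The vertical axis gives log2(TPM + 1) for each of the 10 genes on the horizontal axis, grouped by role (synthesis, uptake, binding, clearance), with 1 point per library (3 per diet, marker shape giving the library number) and a line at each diet's mean. Aldh1a2, Crabp2, Rbp4, Cyp26b1 and Dhrs3 have all obesogenic points below all control points, Crabp1 has them above, and Aldh1a1, Rdh10, Stra6 and Aldh1a3 overlap.

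In mean control TPM, the tested members spanned almost the whole range of the genes tested. In control libraries the order by mean TPM was Aldh1a1, Aldh1a2, Crabp2, Rbp4, Stra6, Dhrs3, Cyp26b1, Rdh10, Crabp1 and Aldh1a3. Aldh1a1 exceeded 98.2% of tested genes in mean control TPM, Aldh1a2 97.8% and Crabp2 96.3%, while Cyp26b1 and Rdh10 lay near the middle (48.7% and 47.1%) and Crabp1 near the bottom (0.411%). Crabp1 was below 1 TPM in every control library and was tested only through its obesogenic libraries, so its place among tested genes follows from the filter. Neighbours whose control libraries overlapped, and whose order is therefore not settled, were Aldh1a1 and Aldh1a2, Rbp4 and Stra6, Stra6 and Dhrs3, Cyp26b1 and Rdh10, and Crabp1 and Aldh1a3. With the obesogenic diet Aldh1a1 no longer overlapped Aldh1a2, Crabp1 stood between Dhrs3 and Rdh10 and overlapped both, and Cyp26b1 came after Rdh10 without overlap.

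Promoter sequences are shown for the members whose diets did not overlap and for which RefSeq gave a window with the transcript start, Dhrs3 left out because each of its 3 windows overlaps a neighbouring one. Aldh1a2, Rbp4 and Cyp26b1 were lower with the obesogenic diet and Crabp1 higher. Each window holds 250 bases before and 50 after a transcript start in GRCm38.p6, is written 5′ to 3′ on the gene's strand, and is credited to RefSeq. Capitals mark GC boxes (GGGCGG, or CCGCCC for the other strand) and TATAAA. They are, for Aldh1a2, chr9:71215539-71215838 on the plus strand, for Rbp4, chr19:38124762-38125061 on the minus strand, for Cyp26b1, chr6:84593761-84594060 on the minus strand, and for Crabp1, chr9:54764498-54764797 on the plus strand.
Aldh1a2: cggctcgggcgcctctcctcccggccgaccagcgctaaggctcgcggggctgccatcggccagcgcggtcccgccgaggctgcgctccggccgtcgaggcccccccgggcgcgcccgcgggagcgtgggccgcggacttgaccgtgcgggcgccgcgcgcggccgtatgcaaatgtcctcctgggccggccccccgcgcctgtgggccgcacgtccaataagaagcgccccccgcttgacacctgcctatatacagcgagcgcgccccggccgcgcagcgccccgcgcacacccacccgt
Rbp4: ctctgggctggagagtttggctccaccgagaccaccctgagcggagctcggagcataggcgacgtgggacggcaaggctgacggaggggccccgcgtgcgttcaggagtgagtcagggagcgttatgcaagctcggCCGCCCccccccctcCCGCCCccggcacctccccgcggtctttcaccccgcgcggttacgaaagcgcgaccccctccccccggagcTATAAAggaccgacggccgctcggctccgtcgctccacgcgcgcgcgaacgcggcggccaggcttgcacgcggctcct
Cyp26b1: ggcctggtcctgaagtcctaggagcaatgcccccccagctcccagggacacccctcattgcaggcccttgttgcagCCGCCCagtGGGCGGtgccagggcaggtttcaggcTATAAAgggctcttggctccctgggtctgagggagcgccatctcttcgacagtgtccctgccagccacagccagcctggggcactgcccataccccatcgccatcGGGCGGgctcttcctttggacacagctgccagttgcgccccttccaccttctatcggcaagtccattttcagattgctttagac
Crabp1: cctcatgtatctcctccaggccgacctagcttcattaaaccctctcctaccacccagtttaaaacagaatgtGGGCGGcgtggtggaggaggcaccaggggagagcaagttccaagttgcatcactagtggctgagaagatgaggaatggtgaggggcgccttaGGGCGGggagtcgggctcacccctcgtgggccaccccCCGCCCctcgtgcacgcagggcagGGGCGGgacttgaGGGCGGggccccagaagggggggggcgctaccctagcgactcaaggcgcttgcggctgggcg

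The printed windows of Aldh1a2 and Rbp4 were 78.0% and 72.0% G or C, those of Cyp26b1 and Crabp1 62.3% and 65.0%, and the median over all 32851 promoters of the table was 52.7%. Rbp4 has 2 windows, and the one with matches to the marked motifs is printed. The other was 40.7% G or C and held no GC box and no TATAAA. A retinoic acid receptor binds a direct repeat of a 6-base half-site, searched here with the letters AGGTCA, or with the letters AGTTCA, or with the letters GGGTCA, or with the letters GGTTCA, on both strands, with a spacer of 1, 2 or 5 bases. None of the 14 windows held by 7 of the members contained such a repeat, which 0.222%, 0.268% and 0.0974% of all promoters held for the 3 spacers. A single half-site, which any such repeat also contains, was found in 3 of the 14 windows (1 each of Stra6, Aldh1a1 and Rbp4, the last not the window printed), against 43.7% of all promoters. GC boxes were in 6 of the 14 windows against 35.7% of all, with 5 copies in that of Crabp1, 3 in that of Cyp26b1, 2 in the printed one of Rbp4 and 0 in that of Aldh1a2. TATAAA was in 2 of the 14, those of Rbp4 and Cyp26b1, against 13.6% of all. These are matches of letters within 300 bases and describe no binding.

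Of the enzymes of synthesis, Rdh10 (ENSMUSG00000025921), which opens the pathway by oxidising retinol, measured 11.8, 11.1 and 12.2 TPM in control libraries 1, 2 and 3 and 14.1, 11.9 and 10.4 TPM in obesogenic libraries 1, 2 and 3. The diets overlapped, and the log2 difference of 0.04 (SE 0.24, limma adjusted p = 0.965) took the other sign with median-of-ratios scaling (-0.01) and with quantile normalization (-0.11). Dhrs3 (ENSMUSG00000066026), whose product reduces retinaldehyde back to retinol, measured 53.9, 47.9 and 42.2 TPM with the control diet and 24.4, 37.3 and 27.4 TPM with the obesogenic diet. Its diets did not overlap, with obesogenic library 2 nearest to control, and the log2 difference was -0.69 (SE 0.22, limma adjusted p = 0.365). The within-library ratio of Rdh10 to Dhrs3 TPM was 0.219, 0.232 and 0.289 with the control diet and 0.578, 0.318 and 0.379 in obesogenic libraries. A ratio within a library does not depend on how libraries are scaled to each other, apart from the pseudocount of 1 used in its test. This one was above every control value in each obesogenic library (log2 difference 0.73, exact two-sided permutation p = 0.1, the smallest that 3 against 3 allows, adjusted p = 0.125 over 5 ratios).

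Aldh1a1 and Aldh1a2 encode the enzymes that make retinoic acid from retinaldehyde in many tissues, and they were the members with the highest levels. Aldh1a2 (ENSMUSG00000013584) measured 291, 325 and 251 TPM with the control diet and 109, 93.9 and 92.3 TPM with the obesogenic diet. The obesogenic libraries lay close together and far below control, with a log2 difference of -1.54 (SE 0.18, limma adjusted p = 0.119). Aldh1a1 (ENSMUSG00000053279) measured 322, 275 and 386 TPM with the control diet and 423, 172 and 272 TPM with the obesogenic diet. Its highest value and its lowest were both from the obesogenic diet, in libraries 1 and 2, and its log2 difference was -0.26 (SE 0.33, limma adjusted p = 0.823), with the other sign without obesogenic library 2 (0.06). In mouse, Aldh1a7 is a close paralog of Aldh1a1, and it was listed at 0.116 to 0.778 TPM, and how reads shared by the pair were assigned is not known.

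Aldh1a2 made up 47.4%, 54.2% and 39.4% of the TPM of Aldh1a1 and Aldh1a2 together in control libraries and 20.5%, 35.3% and 25.3% in obesogenic libraries. The share was thus lower in every obesogenic library, and the within-library log2 ratio of Aldh1a2 to Aldh1a1 differed by -1.28 (exact two-sided permutation p = 0.1, adjusted p = 0.125). The sum of both was 617 ± 18.3 TPM with the control diet and 387 ± 134 TPM with the obesogenic diet (SD, n = 3), at 532, 266 and 365 TPM in obesogenic libraries 1, 2 and 3. Aldh1a3 (ENSMUSG00000015134), the third enzyme of this family, was listed at 0.326, 0 and 0 TPM with the control diet and 0.359, 0 and 0 TPM with the obesogenic diet. Its transcript Aldh1a3-201, of 3443 bases in GENCODE M21, was not analysed here, so the level of the gene as a whole is not known from these values.

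Rbp4 and Stra6 serve the transport and uptake of retinol. Rbp4 (ENSMUSG00000024990) measured 118, 92.0 and 65.1 TPM with the control diet and 39.6, 16.6 and 33.0 TPM with the obesogenic diet. The diets did not overlap, and obesogenic library 2 was the lowest (log2 difference -1.64, SE 0.36, limma adjusted p = 0.236). Nearly all of it came from 1 transcript, Rbp4-202 (99.5% of the gene's control TPM), while Rbp4-201 was not analysed here. Stra6 (ENSMUSG00000032327), the receptor gene, measured 46.8, 66.6 and 68.0 TPM with the control diet and 33.2, 50.8 and 33.6 TPM with the obesogenic diet. Obesogenic library 2 exceeded control library 1, and the log2 difference was -0.62 (SE 0.25, limma adjusted p = 0.437).

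The cytosolic binding proteins went opposite ways. Crabp2 (ENSMUSG00000004885), which carries retinoic acid to its nuclear receptors, measured 191, 206 and 182 TPM with the control diet and 85.5, 52.1 and 56.9 TPM with the obesogenic diet. Control libraries lay close together and all obesogenic ones were far below (log2 difference -1.59, SE 0.22, limma adjusted p = 0.132). Crabp1 (ENSMUSG00000032291), which in many cells is linked to retinoic acid breakdown, measured 0.569, 0.539 and 0.191 TPM with the control diet and 8.83, 1.62 and 46.6 TPM with the obesogenic diet. All obesogenic libraries were higher, but they spread widely (log2 difference 2.91, SE 0.94, limma adjusted p = 0.365). The Crabp2 level was 335, 382 and 954 times that of Crabp1 in control libraries and 9.69, 32.1 and 1.22 times in obesogenic libraries.

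Crabp1 was highest where neuronal genes were highest. The 14 neuronal genes, from Snap25 and Syt1 to the neurofilament genes, had a higher obesogenic mean in 14 of 14, while 42.3% of all genes tested had a lower one. In 7 of the 14 all obesogenic libraries lay above all control ones, against 8.88% of all genes. Some, such as Syt1, reached the level for testing only through their obesogenic libraries, so these counts are a description. Library medians of the 14 relative to the control mean were 2.51, 0.51 and 3.55 log2 units in obesogenic libraries 1, 2 and 3, the same order as Crabp1. In control libraries 1, 2 and 3 these medians were 0.02, -0.52 and 0.40. Crabp1, at 0.569, 0.539 and 0.191 TPM there, did not follow that order. Tanycytes are glia-like cells that line the third ventricle beside the hypothalamus, and the 9 tanycyte and ependymal genes had sums of 156, 65.7 and 157 TPM in obesogenic libraries 1, 2 and 3 against 67.5 to 79.5 TPM in control, with none at 0. The part of these markers in the Crabp1 values was not tested.

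Cyp26b1 (ENSMUSG00000063415), which encodes a P450 enzyme that degrades retinoic acid and is itself a known retinoic acid target, had the largest difference downwards. It measured 18.9, 5.90 and 12.8 TPM with the control diet and 3.11, 1.28 and 1.78 TPM with the obesogenic diet. The control libraries spread by a factor of more than 3, yet the lowest of them was above every obesogenic one (log2 difference -2.06, SE 0.46, limma adjusted p = 0.236). The within-library log2 ratio of Aldh1a2 to Cyp26b1 was 4.54 ± 0.898 with the control diet and 5.06 ± 0.320 in obesogenic libraries (SD, n = 3) and overlapped between diets (exact two-sided permutation p = 0.4). The other CYP26 genes were at or near 0, with Cyp26a1 at 0.566 TPM or less and Cyp26c1 at 0.164 TPM or less in every library.

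**Figure D2:**
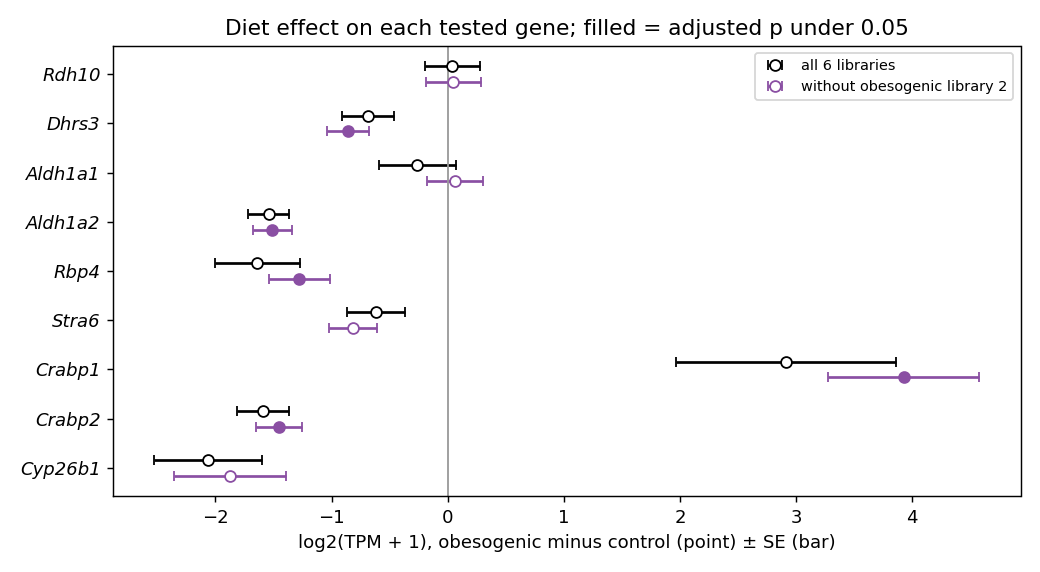
The horizontal axis gives the difference between diets in log2(TPM + 1), obesogenic minus control, with its SE as a bar, for the 9 tested genes listed on the vertical axis, over all 6 libraries (black) and without obesogenic library 2 (purple). No point is filled over all 6 libraries, and without obesogenic library 2 those of Dhrs3, Aldh1a2, Rbp4, Crabp1 and Crabp2 are.

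Which differences passed turned on obesogenic library 2. Without it 5 of the 9 genes passed limma's test, 4 of them lower (1.25% of all genes were called lower in that fit) and Crabp1 higher (5.12%). Crabp1 entered this and every such count only through its high obesogenic libraries, so its call is a description. Adjusted p was then 0.0182 for Aldh1a2, 0.0203 for Crabp2, 0.0282 for Crabp1, 0.0417 for Rbp4 and 0.0436 for Dhrs3. The differences of Aldh1a2, Crabp2 and Rbp4 were no larger in that fit, at -1.51, -1.45 and -1.28, while those of Dhrs3 and Crabp1 were larger, at -0.86 and 3.93. With obesogenic library 2 alone standing for its diet, a setting chosen after seeing the data, log2 differences were -1.60 for Aldh1a2, -1.87 for Crabp2 and 0.88 for Crabp1. A single library holds no spread, so no test is given for that setting. With array weights, which give libraries that fit the model poorly less weight, 7 of the 9 passed, 6 of them lower (3.89% of all genes were called lower) and Crabp1 higher. In that fit 1505 of the 14364 genes tested were called higher. The fits that left out any other single library called 0 of the 9. Genes with all obesogenic values below all control ones numbered 6 of the 9 without obesogenic library 2, where Stra6 joined (11.8% of all genes), and 6 of the 9 with it alone, where Aldh1a1 joined (44.2% of all genes).

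Which isoforms carried the sums varied by gene. The members had 45 listed transcripts, of which 21 reached 1 TPM in at least 3 libraries. In 8 of the 21 the diets did not overlap and the obesogenic libraries were lower, against 6.11% of 35408 transcripts tested, and 0 passed limma's test (0.00565% of all transcripts did). Cyp26b1-204 and Cyp26b1-205, both among the 8, reached the level for testing only with their control libraries counted, so this count is a description. Aldh1a2 and Crabp1 are listed with 1 transcript each, and Crabp2-201 gave 99.9% of the control TPM of Crabp2. Aldh1a1 was split between Aldh1a1-201 (54.5% of its control TPM), the short Aldh1a1-205 (22.9%) and Aldh1a1-206 (21.1%), with log2 differences of -0.44, -0.22 and 0.12 that all lay within 2 SE of 0. Stra6 came mainly from Stra6-202, at 35.2, 55.9 and 49.5 TPM with the control diet and 26.0, 33.9 and 18.7 TPM with the obesogenic diet, which did not overlap although the gene's sum did (log2 difference -0.83, SE 0.29, limma adjusted p = 0.514). Cyp26b1 came from Cyp26b1-204 and Cyp26b1-205, at 52.5% and 45.1% of its control TPM, and both were lower in every obesogenic library (-2.08 and -1.38, limma adjusted p = 0.319 and 0.537). Of the Dhrs3 sum, 26.6% in control belonged to Dhrs3-201, a transcript annotated for nonsense-mediated decay, and 55.3% to the coding Dhrs3-207.

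Markers of the meninges, of vessels, of border macrophages and of oligodendrocytes were lower beside Aldh1a2, Crabp2 and Rbp4. Over all genes 42.3% had a lower obesogenic mean and 7.45% had all obesogenic libraries below all control ones. Of 22 meningeal genes, such as Slc22a6, Slc13a4, Foxc1 and Foxc2, 21 had a lower obesogenic mean, and in 17 all obesogenic libraries lay below all control ones. Earlier results of these data had already named 7 of the 22 (Fmod, Ogn, Col1a1, Col1a2, Col3a1, Wnt6 and Igf2) as lower, so these counts are a description. The sum of the 22 was 2620 to 3981 TPM with the control diet and 1066 to 1970 TPM with the obesogenic diet. The sum of 1970 TPM was that of obesogenic library 2, where Serping1 alone was at 793 TPM. Serping1 was at 194 and 144 TPM in obesogenic libraries 1 and 3 and at 295 to 497 TPM in control. Alpl, the gene that was not lower on average, was at 0 in obesogenic library 3. Endothelial genes were lower in 15 of 15, 10 of them without overlap, and pericyte and smooth muscle genes in 10 of 10 tested, 6 without overlap, with sums of 1013 to 1554 against 616 to 786 TPM and of 797 to 1207 against 435 to 453 TPM. Border macrophage genes were lower in 7 of 8, 5 without overlap, with a median of -1.30 against -1.28 for the meningeal genes and sums of 147 to 164 against 45.1 to 83.6 TPM. Oligodendrocyte genes were lower in 12 of 12, 5 without overlap, with a median of -0.61 and sums of 62185 to 70217 against 27187 to 55522 TPM. Astrocyte genes, 8 of 12 lower, summed to 7074 to 8647 TPM with the control diet and 3323 to 8398 TPM with the obesogenic diet. Choroid plexus and pigment epithelium are tissues rich in Rbp4 and Stra6, and 10 of their genes summed to 101 to 139 TPM with the control diet against 40.3 to 58.4 TPM with the obesogenic diet. Most of that sum was Kcnj13, a potassium channel gene, at 124, 95.4 and 86.3 TPM with the control diet and 39.5, 32.6 and 22.2 TPM with the obesogenic diet, 3.24 times higher in control and without overlap. Of the 7 tested genes of that list 3 were lower, Rpe65 was at 0 in every library and Ttr was at 0.913 to 6.31 TPM. The part of these cell types in the values of the pathway was not tested. The ratios that follow set the members beside the meningeal markers and assign no part to a cell type.

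Set against the median of the meningeal genes of the same library, the members separated. Aldh1a2 was 1.57, 1.81 and 1.66 log2 units above that median with the control diet and 1.44, 1.14 and 1.46 in obesogenic libraries, a difference of -0.33 compared with -1.54 before (exact two-sided permutation p = 0.1, adjusted p = 0.225 over 9 genes). Leaving out 7 of the 22 markers that earlier results of these data had named gave -0.30 and p = 0.5 in the same exact permutation test. Crabp2 differed by -0.38 and Rbp4 by -0.43, and both overlapped between diets. Without obesogenic library 2 the Rbp4 difference was 0.0026 and the Crabp2 difference -0.17. Cyp26b1 differed by -0.85 and overlapped, at -1.30 without control library 2. Rdh10 lay the other way, at -2.94, -2.95 and -2.60 with the control diet and -1.42, -1.75 and -1.58 in obesogenic libraries, a difference of 1.25 without overlap. Its own log2 difference was 0.04, while the meningeal genes had a median of -1.28, so this is no rise of Rdh10 in TPM. Dhrs3 was 0.52 higher on this scale, Stra6 0.59 and Aldh1a1 0.95, and of these Dhrs3 alone did not overlap. Before, they were at -0.69, -0.62 and -0.26, so higher here means an estimate less negative than the median of the markers. For Aldh1a1 no fall was established, as its TPM overlapped between diets and its own log2 difference was 0.06 without obesogenic library 2. Stra6 was at 0.35 without control library 1. Crabp1 had the largest difference, 4.12 without overlap (exact two-sided permutation p = 0.1). The smallest p this test can give is 0.1, so no gene could pass it.

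**Figure D3:**
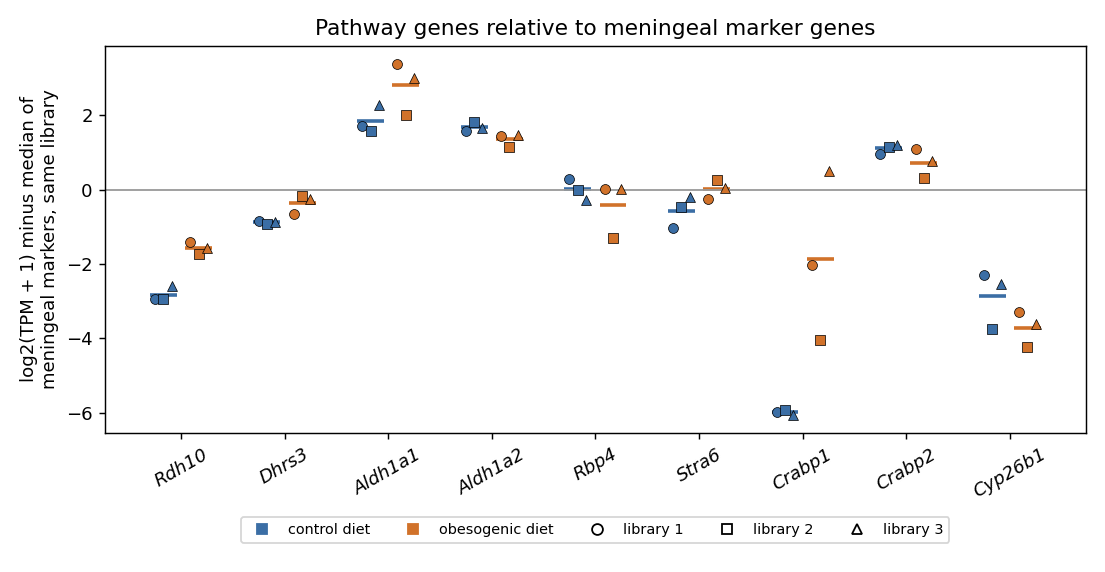
The vertical axis gives, for each library, log2(TPM + 1) of a gene minus the median of 22 meningeal marker genes in the same library, for the 9 tested genes on the horizontal axis (3 points and a mean line per diet). Aldh1a2, Crabp2 and Rbp4 differ between diets by -0.33, -0.38 and -0.43, and the points of Rdh10 lie 1.25 higher with the obesogenic diet. The log2 difference of Rdh10 itself is 0.04.

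The genes with the pattern most like Aldh1a2 were found by the root mean square difference, over the 6 libraries, of log2(TPM + 1) centred on each gene's mean, among 8077 genes with a mean of at least 10 TPM. They were Sphk1 (0.083 log2 units), which makes sphingosine phosphate, Fmod (0.11), a collagen-binding proteoglycan, Slc6a12 (0.11), a betaine and GABA transporter, Cd248 (0.11) and Serpind1 (0.13), against a median of 0.85 over those genes. Crabp2 itself stood 0.16 from Aldh1a2, nearer than any other member, followed by Rbp4 at 0.38. Nearest to Crabp2 were Ranbp3l (0.14), Ctxn3 (0.14), Asgr1 (0.14), Slc6a12 (0.14) and Sphk1 (0.15). Among the 5 nearest to Rbp4 were Ctxn3 (0.28), Asgr1 (0.28), Slc5a5 (0.29), an iodide transporter, and Sned1 (0.29). These distances over 6 libraries are a description.

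Of 68 further retinoid genes, 38 reached the level for testing and 0 passed limma's test, 3 at an unadjusted p of 0.05 (11.0% of all genes did). Their mean log2(TPM + 1) was lower with the obesogenic diet in 27 of 38, against 42.3% of all genes, with a median of -0.26. The diets did not overlap in 5 genes that were lower with the obesogenic diet, Adh1, Adh5, Rdh5, Rara and Meis2 (7.45% of all genes), and in 3 that were higher, Lrat, Rdh13 and Nrip1 (8.88% of all genes). Lrat and Rdh13 reached the level for testing only through their obesogenic libraries, so the count of higher genes is a description. Of the retinol and retinaldehyde enzymes 8 of 9 were lower. Adh1, an alcohol dehydrogenase that oxidises retinol, measured 10.5, 11.7 and 14.3 TPM with the control diet and 4.32, 3.48 and 5.13 TPM with the obesogenic diet, without overlap (log2 difference -1.31, SE 0.28, limma adjusted p = 0.225). Rdh5, a retinol dehydrogenase known from the visual cycle, was at 31.0 ± 5.31 against 20.6 ± 5.83 TPM (SD, n = 3; limma adjusted p = 0.475), and the ubiquitous Adh5 at 123 ± 4.35 against 105 ± 15.4 TPM (adjusted p = 0.684).

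Of 8 tested genes of retinoid storage and transport, 7 were lower and Lrat was the exception. Lrat, the enzyme that esterifies retinol for storage, measured 0.381, 0.164 and 0.192 TPM with the control diet and 14.7, 2.37 and 3.60 TPM with the obesogenic diet (log2 difference 2.33, SE 0.58, limma adjusted p = 0.267). Like Crabp1 it was tested only because its obesogenic libraries reached 1 TPM. Its highest value was in obesogenic library 1 and that of Crabp1 in obesogenic library 3, so the order of the libraries differed between them. Fabp5, a fatty acid carrier that also binds retinoic acid, was the most abundant gene of this group, at 457 ± 44.0 against 395 ± 67.0 TPM (SD, n = 3; limma adjusted p = 0.744).

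The receptors and their cofactors had a median near that of all genes (0.09), with 4 of 11 lower. Rara was at 14.4, 16.2 and 9.91 TPM with the control diet and 9.30, 8.86 and 7.48 TPM with the obesogenic diet, which did not overlap (log2 difference -0.58, limma adjusted p = 0.497). Rarb, a receptor gene that retinoic acid itself induces in many cells, was at 10.1, 14.0 and 11.9 TPM with the control diet and 10.1, 9.93 and 11.5 TPM with the obesogenic diet, which overlapped (log2 difference -0.17, limma adjusted p = 0.851). Rxrb was at 53.3 ± 4.58 against 53.8 ± 5.13 TPM (SD, n = 3; limma adjusted p = 0.986). Rxrg was at 11.3, 2.94 and 33.4 TPM in obesogenic libraries 1, 2 and 3 against 3.02 to 5.47 TPM in control, and so was high in the libraries with high neuronal genes.

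Of 11 tested genes from a list of other retinoic acid targets, 7 were lower, with a median of -0.30. Rarb, Nrip1 and Lrat stand in that list too and are counted once among the 38. Meis2, a homeobox gene, was at 4.37 ± 0.679 against 1.51 ± 0.803 TPM (SD, n = 3; limma adjusted p = 0.342). Tgm2, a transglutaminase induced by retinoic acid, was at 73.5, 75.5 and 46.9 TPM with the control diet and 21.1, 109 and 28.8 TPM with the obesogenic diet, its highest value being in obesogenic library 2. Rarres2, which encodes the chemoattractant chemerin, was also highest in that library, at 214 TPM against 60.8 to 124 TPM in control. Without obesogenic library 2, Adh1, Cyp1b1 and Tgm2 passed as lower (1.25% of all genes did) and Lrat as higher (5.12%), 4 of the 38 in all.

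**Figure D4:**
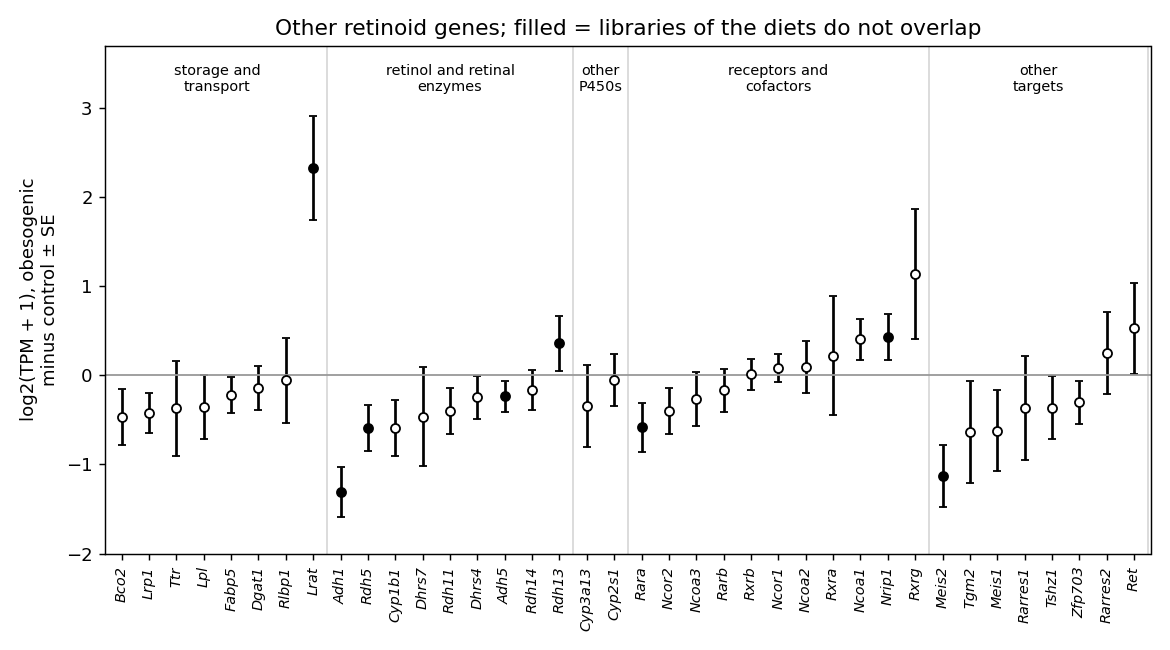
The vertical axis gives the difference in log2(TPM + 1), obesogenic minus control, with its SE, for the 38 tested genes of 5 other retinoid groups named on the horizontal axis, over 3 libraries per diet; filled points mark genes whose diets do not overlap. Adh1 is lowest at -1.31 and Lrat highest at 2.33, and 27 of the 38 points lie below 0.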

How the data were processed

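Optic nerve polyA RNA from 3 control-diet and 3 obesogenic-diet samples was analysed. Per the labels' protocols, extraction used a NucleoSpin RNA Plus XS kit, and a SMART-Seq mRNA kit served for library preparation. The authors deposited transcript abundances in TPM. Tools listed in the submitters' processing notes, with no role, are featureCounts 2.0.3, Subread, DRAGEN and STAR 2.7.9a. Build and annotation: not given in the sources used here. Repeated lines of 415 transcripts were counted once, and transcripts were summed to genes. TPM keeps no depth, so no counting interval was computed. Genes at 1 TPM or more in at least 3 libraries were tested as log2(TPM + 1), a scale that understates changes of low genes, with limma 3.58.1 in R 4.3.3 (mean-variance trend, two-sided, Benjamini-Hochberg over all 14364 genes; transcripts likewise). Ratios were tested by exact permutation. The fit was tested on simulated data. Transcript lengths came from GENCODE M21 by transcript ID, and RefSeq promoters (GRCm38.p6) matched 7 of the 10 genes. All members were described; like genes were sought for Aldh1a2, Crabp2 and Rbp4 (5 each, 1 of which is not reported here), and in each further list the genes of smallest unadjusted p or highest level were eligible to be named; Rarb, Tgm2, Cyp26a1, Cyp26c1 and Aldh1a7 were added after their values were seen. Members, lists and tests were chosen with earlier results of these data known, and 7 meningeal markers were already known to be lower. Alternatives covered pseudocount, filter, scaling, block, weights and left-out libraries.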

Additional observations from a re-analysis of the deposited data

How the results depend on the processing

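Of the 9 genes tested, 0 passed over all libraries and 7 passed with array weights. Leaving out 1 library at a time gave 0 to 5. Over all genes the count was 1, against 0 without a filter, 0 among protein-coding genes, 2064 with array weights (14.4% of those tested) and 193 without obesogenic libraries 1 and 3, with 0 to 914 when 1 library was left out. Of the other retinoid genes, 0 to 4 passed when 1 library was left out. Rdh10 had the other sign with median-of-ratios scaling (-0.014) and quantile normalization (-0.11), and ranged from -0.067 to 0.14 without 1 library; the median of all genes was -0.03 with quantile normalization. Aldh1a1 was at 0.30 with array weights and ranged from -0.58 to 0.063 without 1 library. On the same removals the sign changed for Dhrs3-206 (-0.60 to 0.16), Stra6-213 (-0.33 to 1.38), Aldh1a1-204 (-0.13 to 0.87), Aldh1a1-205 (-0.57 to 0.16), Aldh1a1-206 (-0.22 to 0.46) and Rbp4 relative to meningeal markers (-0.65 to 0.0026). The cause was not tested. Aldh1a2, Crabp2, Rbp4, Cyp26b1, Dhrs3, Stra6 and Crabp1 kept their direction in every setting in which they were tested, Aldh1a2 between -1.64 and -1.44. Rescaled without immunoglobulin genes, differences were -1.44 for Aldh1a2, -1.49 for Crabp2, -1.54 for Rbp4, -0.16 for Aldh1a1 and 0.14 for Rdh10. In that fit 0 of the 9 genes passed. Whether the sample numbers of the titles pair the libraries cannot be settled with 3 libraries per diet. Same-numbered libraries 1, 2 and 3 had deviations correlated at 0.0079, 0.18 and 0.13. Those of libraries 2 and 3 were the highest of any pair, while obesogenic library 1 correlated more with control library 3 (0.11). With the replicate block 0 of the 9 genes passed, with adjusted p = 0.156 for Aldh1a2 and Crabp2, and 1 gene passed in all.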
